A study of Mus musculus with 30 samples.

Results

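The genes described here are 9 genes known from the visceral endoderm and the yolk sac: Afp, Ttr, Apoa1, Apoe, Cubn, Amn, Dab2, Hnf4a and Foxq1. They were taken by name, and all 9 had a row in both deposited count tables, which list 23284 genes each. Bulk RNA was sequenced from 14 libraries of mouse embryonic stem (ES) cells and of embryoid bodies (EBs), the aggregates that ES cells form when they differentiate in suspension, in a study of how p53 acts with Wnt and TGF-β signals on mesendoderm genes. In the time course, wild-type E14Tg2a.IV cells (129/Ola, called E14 here) were sampled daily: undifferentiated cells on gelatin in serum and LIF at day 0, then EBs at days 1 to 4, with 2 libraries a day. In the genotype table, EBs at day 4 came from C57BL/6J ES cells kept in N2B27 with LIF and 2i, 2 libraries being Trp53+/+ and 2 being Trp53-/- with p63shRNA and p73shRNA (called p53 family loss here). The labels name no hairpin in the Trp53+/+ line and no Activin or SB431542 for any RNA library. They also do not say whether each line is 1 clone, or whether paired libraries began as separate cultures. The p-values below therefore measure only how much these libraries varied, which may be technical.

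The visceral endoderm is the extraembryonic epithelium that surrounds the epiblast of the early mouse embryo and later lines the yolk sac. It feeds the embryo before the placenta works: it takes up maternal proteins through apical endocytic receptors and secretes plasma proteins that the liver makes later in life. Hnf4a is the nuclear receptor that drives much of this secretory programme, downstream of Gata4 and Gata6, and in EBs such an epithelium usually forms on the outer surface.

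Depth ranged from 20104644 to 39835808 reads in the E14 libraries and from 19104692 to 31580252 reads in the other 4. The targeted genes followed the labels where they could be read. Trp53 was at 8339 and 11784 normalised reads in the Trp53+/+ libraries and at 866 and 802 in those with p53 family loss, a log2 fold change of -3.57 ± 0.20 (SE; limma adjusted p = 0.0017). Trp73 was at 219 and 297 against 48.0 and 52.5, and Trp63 at no more than 6.08 in any of the 4 libraries. The 2 day 0 libraries differed from each other in several of the 9 genes, as did the 2 Trp53+/+ libraries. Results that rest on them are given with and without each. Values below are normalised read counts, the authors' counts divided by 1 factor per library, and they compare a gene across libraries but not 1 gene with another. In bulk RNA, fewer cells of a type and less RNA per cell cannot be told apart.

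The start regions of 4 members are shown because these genes differ in how they changed: Afp, Cubn and Hnf4a had their highest E14 mean at day 4, and Apoa1 did not. RefSeq on GRCm38.p6 had start regions for 7 of the 9 members. The letters are the 250 bases before the annotated start, 5′ to 3′ on the gene's strand, and 204 bases for Hnf4a, whose annotated gene begins inside its window. Capitals mark 3 motifs searched on both strands, a nuclear receptor half-site (AGGTCA), a forkhead core (TGTTTNC) and a GATA site (AGATAA).
Afp, chr5:90490464-90490713, plus strand: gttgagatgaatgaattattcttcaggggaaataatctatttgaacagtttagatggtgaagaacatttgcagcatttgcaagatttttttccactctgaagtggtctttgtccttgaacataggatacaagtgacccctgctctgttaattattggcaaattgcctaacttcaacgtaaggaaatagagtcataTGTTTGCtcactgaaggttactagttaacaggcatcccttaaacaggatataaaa
Cubn, chr2:13491877-13492126, minus strand: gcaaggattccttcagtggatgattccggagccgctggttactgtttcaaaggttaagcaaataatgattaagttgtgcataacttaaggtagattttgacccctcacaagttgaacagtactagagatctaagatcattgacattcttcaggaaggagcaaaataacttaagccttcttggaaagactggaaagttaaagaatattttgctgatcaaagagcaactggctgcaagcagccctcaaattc
Hnf4a, chr2:163506607-163506810, plus strand: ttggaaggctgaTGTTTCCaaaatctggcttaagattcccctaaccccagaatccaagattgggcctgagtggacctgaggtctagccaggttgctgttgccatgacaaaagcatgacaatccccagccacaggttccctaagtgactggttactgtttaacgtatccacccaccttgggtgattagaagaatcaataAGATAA
Apoa1, chr9:46228380-46228629, plus strand: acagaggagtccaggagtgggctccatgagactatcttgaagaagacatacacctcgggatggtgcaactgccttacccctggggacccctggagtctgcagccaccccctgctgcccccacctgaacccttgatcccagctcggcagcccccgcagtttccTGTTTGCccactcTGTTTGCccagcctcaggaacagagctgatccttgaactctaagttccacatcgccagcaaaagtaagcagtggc
Afp held 1 forkhead core, Apoa1 held 2 forkhead cores, Hnf4a held 1 forkhead core and 1 GATA site, and the Cubn window held none of the 3 motifs. No matches overlapped. Of 32851 RefSeq start regions of 250 bases, 14.0% held the nuclear receptor half-site, 17.8% the forkhead core and 9.99% the GATA site. Over the first 204 bases the shares were 15.0% for the forkhead core and 8.57% for the GATA site. A match describes the letters only.

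Of the secreted proteins, Afp and Ttr had their highest levels at day 4, at no more than 13 reads per library, while Apoa1 and Apoe showed no called change. Afp encodes alpha-fetoprotein, the main plasma protein of the yolk sac and fetal liver. It was at 1.10 and 0 normalised reads at day 0, 0.862 and 0 at day 1, 0 and 0 at day 2, 0.954 and 1.46 at day 3, and 9.90 and 9.78 at day 4. Both day 4 libraries stood above all 8 earlier ones. These values are 21 reads at day 4 (12 and 9) against 1 read at day 0, a ratio of 17.3 with a counting interval (exact, 95%) of 2.78 to 714. The log2 fold change of day 4 against day 0, on log2 of the normalised count plus 1, was 2.90 ± 0.66 (adjusted p = 0.0079). Afp passed the filter on low counts only through its 2 day 4 libraries, so that a difference was built into its test. Without day 0 replicate 1 or 2 it was 3.44 or 2.37, called in both. DESeq2 did not call it (adjusted p = 0.16), and with a pseudocount of 10 the log2 fold change was 0.91.

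Ttr encodes transthyretin, a carrier of thyroid hormone and of retinol-binding protein. It had no read at day 0, 0.862 and 0.798 normalised reads at day 1, 1.96 and 1.78 at day 2, 3.81 and 0 at day 3, and 4.95 and 14.1 at day 4. The day 4 libraries were the 2 highest, and they differed from each other by more than 2-fold. Against a floor of 3 reads per library at day 0, the day 4 mean was at least 2.78-fold higher. Ttr did not pass the filter, and in the fit without a filter its adjusted p for day 4 against day 0 was 0.0091.

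Apoa1 encodes the main protein of high-density lipoprotein. Its 10 E14 libraries lay between 2.37 and 10.8 normalised reads, from 2 to 13 reads each, and every day overlapped every other. At such counts a change could be missed. The log2 fold change of day 4 against day 0 was 0.28 ± 0.78 (adjusted p = 0.80). Apoe encodes a lipoprotein that many cell types make, ES cells among them here. It was at 29424 and 9035 at day 0, 10442 and 7998 at day 1, 11438 and 15857 at day 2, 12637 and 21147 at day 3, and 13793 and 14685 at day 4. The 2 day 0 libraries lay on both sides of every later library except day 1 replicate 2. Its log2 fold change of day 4 against day 0 was -0.20 ± 0.46 (adjusted p = 0.76). It was -1.05 (adjusted p = 0.016) without day 0 replicate 2 and 0.66 without day 0 replicate 1, so its direction turned on which day 0 library was kept.

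**Figure D1:**
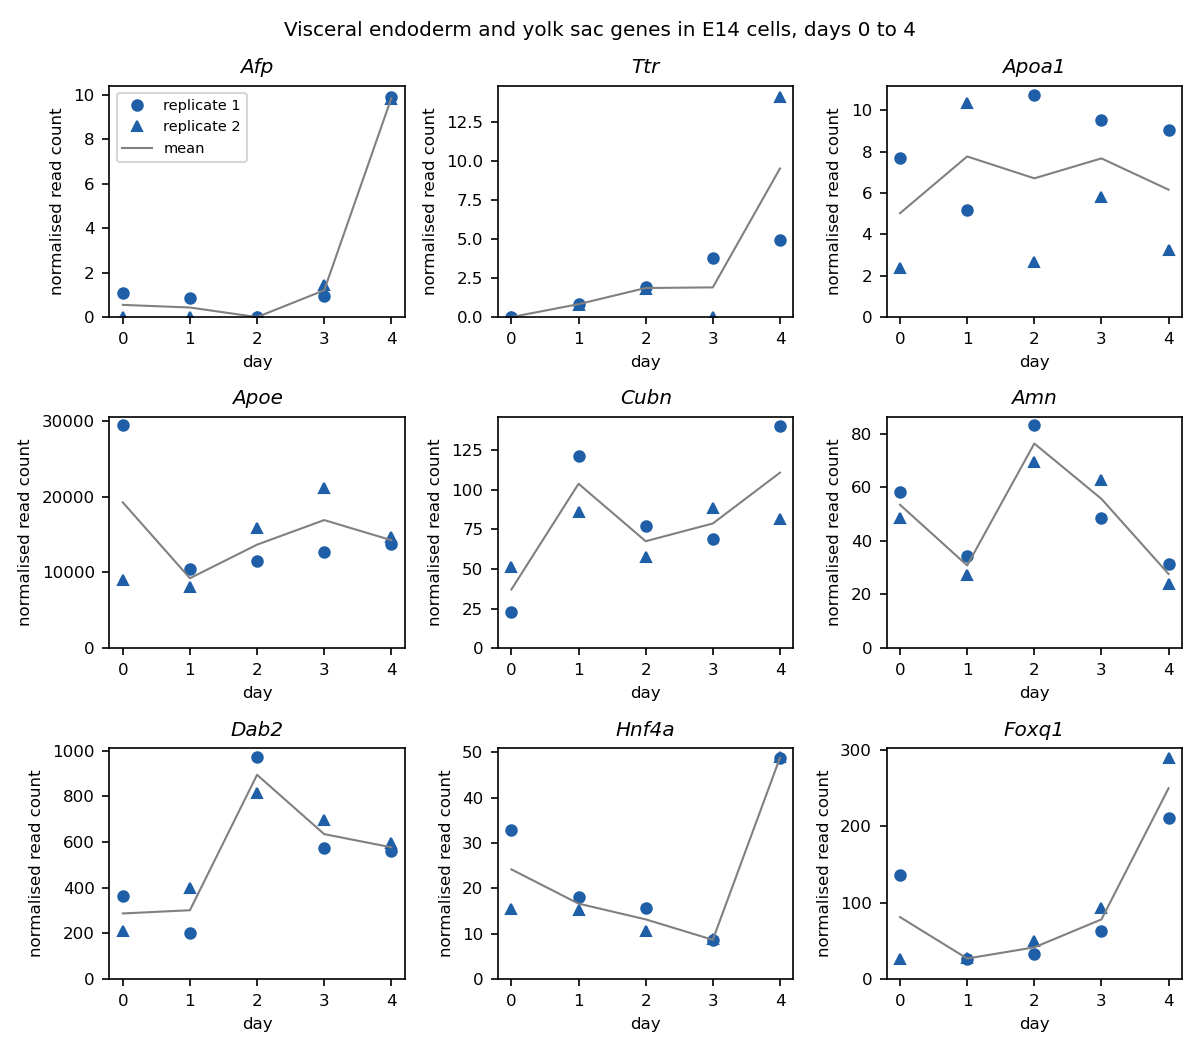
Normalised read counts (y axis, from 0, a scale of its own in each panel) of the 9 genes by day (x axis, days 0 to 4) in the 10 E14 libraries, with circles for replicate 1, triangles for replicate 2 and a line through the means. Afp, Ttr, Hnf4a and Foxq1 have their highest libraries at day 4, Dab2 and Amn theirs at day 2, and Apoe its highest and one of its lowest values in the 2 day 0 libraries.

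The means of the 3 genes of protein uptake took 3 different courses, with no step between neighbouring days called by limma. A difference between the courses was not tested. Cubn encodes cubilin, a receptor for albumin and apolipoprotein A-I with no membrane anchor of its own. Amn encodes amnionless, the membrane protein that carries cubilin to the surface, and Dab2 the adaptor that links such receptors to clathrin. Cubn was at 23.0 and 51.1 at day 0, 121 and 86.2 at day 1, 77.3 and 57.8 at day 2, 68.7 and 88.8 at day 3, and 140.2 and 81.5 at day 4. Both day 0 libraries were the lowest of the 10. Day 4 was above day 0 with a log2 fold change of 1.61 ± 0.47 (adjusted p = 0.024). Day 1 against day 0 had a log2 fold change of 1.55 ± 0.47, which limma did not call (adjusted p = 0.11). DESeq2 called the day 1 difference (adjusted p = 0.037). Without day 0 replicate 1 the day 4 difference was 1.05 and not called (adjusted p = 0.084), and without day 0 replicate 2 it was 2.17 (adjusted p = 0.0036).

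In its means, Amn did not follow its partner. It was at 58.2 and 48.7 at day 0, 34.5 and 27.1 at day 1, 83.2 and 69.3 at day 2, 48.6 and 62.6 at day 3, and 31.3 and 23.9 at day 4. The day 2 libraries were the highest, and those of days 1 and 4 were the lowest, below both day 0 libraries. The log2 fold change was 1.28 ± 0.38 from day 1 to day 2 (adjusted p = 0.12) and -0.93 ± 0.38 at day 4 against day 0 (adjusted p = 0.082). Neither was called by limma. DESeq2 called the day 2 difference (adjusted p = 0.040).

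Dab2 was at 365 and 209 at day 0, 203 and 399 at day 1, 973 and 815 at day 2, 574 and 695 at day 3, and 560.0 and 594 at day 4. Every library of days 2 to 4 was above every library of days 0 and 1. Day 4 was above day 0 with a log2 fold change of 1.06 ± 0.35 (adjusted p = 0.041). The call was near the threshold and was lost in the fit without a filter (adjusted p = 0.0502) and without day 0 replicate 2 (0.66, adjusted p = 0.15). Without day 0 replicate 1 it was 1.46 (adjusted p = 0.0091). The step from day 1 to day 2 was 1.64 ± 0.35 (adjusted p = 0.062), which DESeq2 called (adjusted p = 0.0011).

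Of the 2 transcription factors, Hnf4a rose in the last day and Foxq1 was highest there. Hnf4a was at 32.9 and 15.4 at day 0, 18.1 and 15.2 at day 1, 15.7 and 10.7 at day 2, 8.58 and 8.74 at day 3, and 48.7 and 48.9 at day 4. Its means fell at each step from day 0 to day 3, with no step called, and both day 4 libraries were the highest of the 10. The rise from day 3 to day 4 was 2.37 ± 0.49 on the log2 scale (adjusted p = 0.032). It rests on 104 reads at day 4 against 15 at day 3. Leaving out any of the 4 libraries of days 3 and 4 kept the size (2.35 to 2.38) and lost the call (adjusted p from 0.13 to 0.27). Against day 0 the change was 1.08 ± 0.49 (adjusted p = 0.11), 1.60 (adjusted p = 0.029) without day 0 replicate 1 and 0.55 (adjusted p = 0.37) without day 0 replicate 2.

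Foxq1 encodes a forkhead transcription factor known from the hair defect of satin mice. It was at 136 and 26.1 at day 0, 25.8 and 27.9 at day 1, 33.3 and 49.8 at day 2, 62.9 and 93.2 at day 3, and 210.3 and 289 at day 4. Day 4 stood above all other libraries, and day 0 replicate 1 stood above every library of days 1 to 3. The log2 fold change of day 4 against day 0 was 2.02 ± 0.65 (adjusted p = 0.035). It was 0.85 and not called without day 0 replicate 2 (adjusted p = 0.12), and 3.19 without day 0 replicate 1. With edgeR it was 1.64 (adjusted p = 0.061).

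In all, 8 of the 9 genes passed the filter in the time course, and limma called 4 of them higher at day 4 than at day 0 (Afp, Cubn, Dab2 and Foxq1) and none lower. The filter had admitted Afp through day 4 alone, and of the other 7 genes 3 were called, beside 36% of all 15841 genes tested called, 19.2% higher and 16.7% lower. The median log2 fold change of the 8 genes, Afp included, was 1.07, beside 0.01 over all genes. In the fit without a filter, which holds all 9, the 4 called were Afp, Ttr, Cubn and Foxq1. Without E14 day 4 replicate 1 none of the 8 was called, without day 4 replicate 2 only Afp and Cubn were, and the number of all genes called fell from 5698 to 2811 and 2828. Without day 0 replicate 2, Afp and Cubn were called higher and Apoe lower. Between neighbouring days limma called none of the 8 from day 0 to day 1, day 1 to day 2 or day 2 to day 3, where 3.3% (1.75% higher), 0.593% and 0.133% of all genes were called and 1, 2 and 0 of the 8 had an unadjusted p under 0.05. For these steps edgeR also called none. DESeq2 called 1, 2 and 0 of the 8, beside 1450, 1290 and 315 of all 15841 genes, more than limma called. From day 3 to day 4 limma called Hnf4a alone, 1 of 8, beside 2.93% of all genes (2.31% higher and 0.619% lower).

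**Figure D2:**
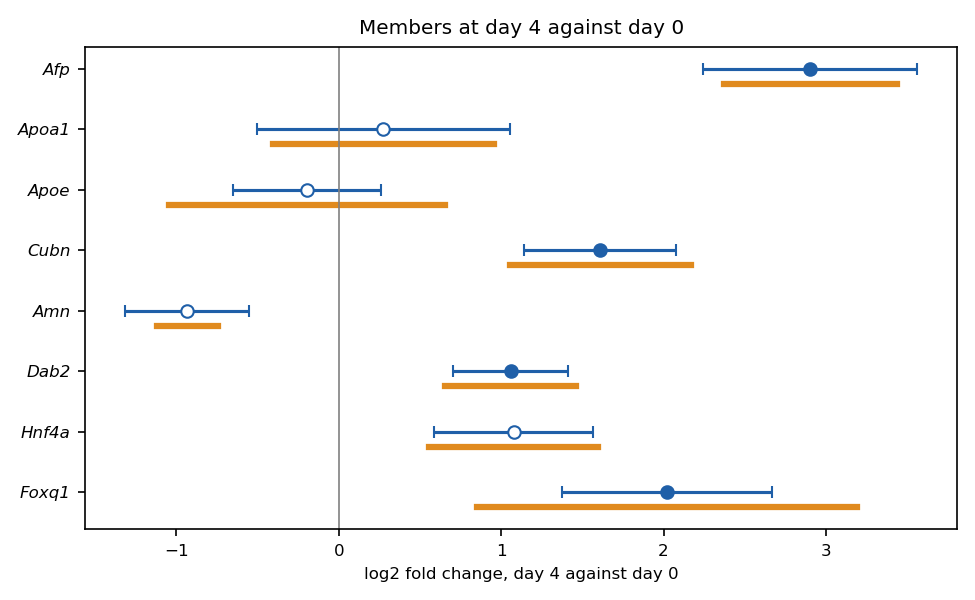
Log2 fold change of day 4 against day 0 (x axis) for the 8 genes that passed the filter (y axis), with the SE as bars, filled points for adjusted p under 0.05 and orange lines for the range when each library of the 2 days was left out in turn. Only the ranges of Apoa1 and Apoe cross 0.

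Transcription factors that act upstream in endoderm were mostly higher at day 4. Of 12 tested primitive and visceral endoderm transcription factors, 9 were higher at day 4 than at day 0 and 1 was lower, with a median of 2.49. Gata4 was at 53.8 and 40.4 at day 0 and at 4193 and 4189 at day 4, a log2 fold change of 6.46 ± 0.36 (adjusted p = 7.2e-06). Gata6 was at 29.6 and 32.1 against 2087 and 2043, and Sox17 at 22.0 and 8.31 against 1217 and 1346. These factors also act in definitive endoderm or mesoderm, and Sox17 and Foxa2 are in the definitive endoderm list as well.

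Genes that work beside the 9 did not share a direction. Of 9 tested endocytic receptor partners, 1 was higher at day 4 (Clcn5, an endosomal chloride transporter, 1.74 ± 0.52) and 1 lower (Ehd1, an endosome recycling factor, -0.91 ± 0.23), with a median of 0.12. Lrp2, or megalin, the membrane receptor that works with cubilin, was at 4477 and 7154 at day 0 and 3663 and 5833 at day 4 (log2 fold change -0.29 ± 0.38, adjusted p = 0.57). Of 7 tested genes of apolipoproteins and lipid export, 3 were lower and none higher, with a median of -0.30. Apoc1, a small apolipoprotein, fell from 1207 and 452 to 146 and 101.1, a log2 fold change of -2.59 ± 0.43 (adjusted p = 0.0015). Apob, which encodes the structural protein of the particles that yolk sac endoderm secretes, had 0.49 ± 0.63 (adjusted p = 0.57). Of 7 tested plasma and transport proteins, 3 were lower, with a median of -1.71, and Trf (transferrin) was lowest in the 2 day 4 libraries, with 18.1 and 23.9 against 140.5 and 175.7 at day 0 (-2.86 ± 0.34, adjusted p = 2.5e-04). Alb (albumin) had 1 read in the 10 libraries together.

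Other visceral endoderm markers were mixed as well, with 3 of 13 higher and 3 lower and a median of 0.44. Bmp2, a ligand that visceral endoderm sends to the epiblast, rose by 4.59 ± 0.42 (adjusted p = 7.2e-05), and Slc39a8, a metal ion transporter, by 3.68 ± 0.72 (adjusted p = 0.0039). Npl, an enzyme of sialic acid breakdown, fell by 1.03 ± 0.24 (adjusted p = 0.0094), and Cdh1, or E-cadherin, fell by 0.53 ± 0.16 (adjusted p = 0.026). Of 10 anterior visceral endoderm genes 5 were higher and 2 lower, with a median of 2.68. Among them are Cer1 and Lhx1, which anterior streak and definitive endoderm also express. Of 13 parietal endoderm markers 5 were higher and 1 lower, with a median of 0.37. Fst, a secreted activin antagonist, rose by 6.13 ± 0.28 (adjusted p = 4.0e-06) and Col4a1, a basement membrane collagen, by 1.74 ± 0.19 (adjusted p = 1.5e-04). Markers of other cell types moved at the same time: all 9 primitive streak and mesoderm markers were higher (summed level 13.7 to 21.1 CPM at day 0 and 2133 to 2135 CPM at day 4), as were 4 of 9 definitive endoderm markers, while 7 of 8 naive ES cell markers were lower. Their part in the changes of the 9 genes was not tested.

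**Figure D3:**
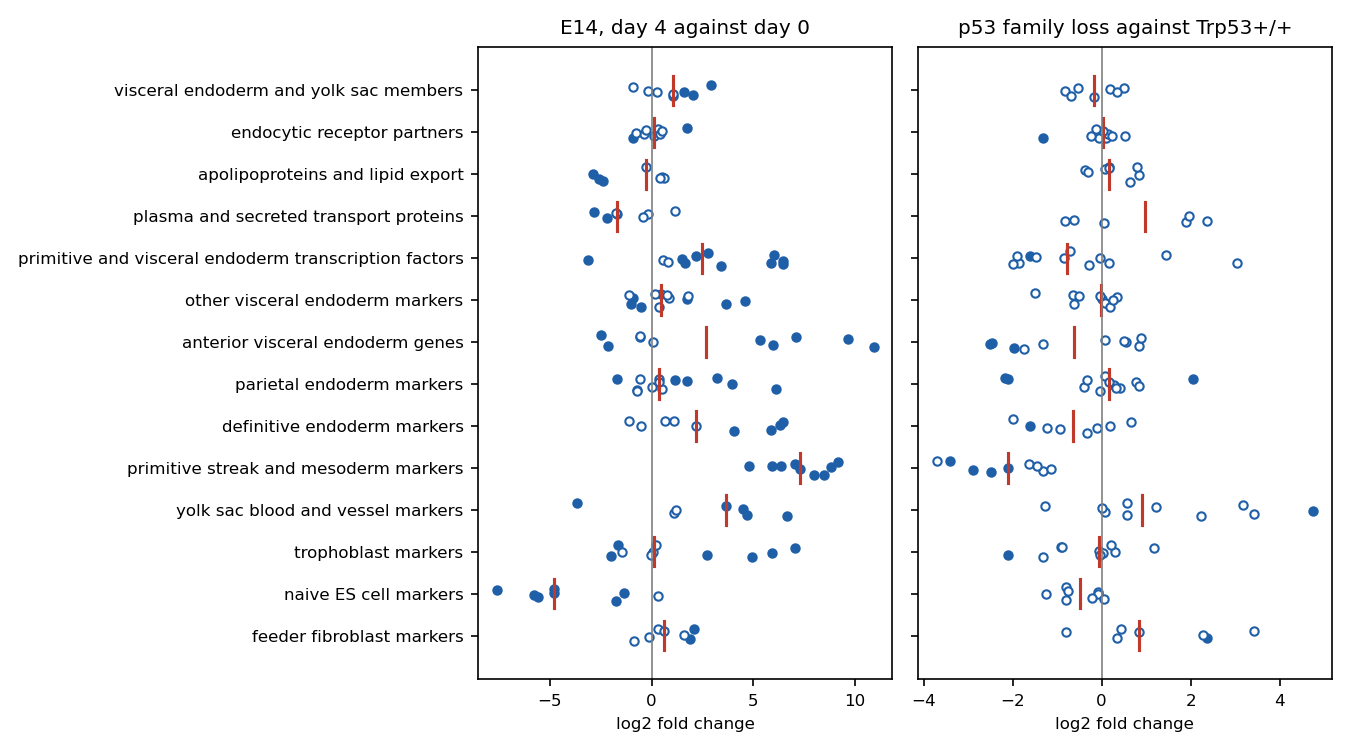
Log2 fold changes (x axis) of the tested genes of each list (y axis) for day 4 against day 0 in E14 (left) and for p53 family loss against Trp53+/+ at day 4 (right), with filled points for adjusted p under 0.05 and red bars for list medians. The tested visceral endoderm and yolk sac genes have a median of 1.07 on the left (8 genes, Afp included) and -0.18 on the right (7 genes). The transcription factors have 2.49 and -0.78, and the streak and mesoderm markers 7.32 and -2.11.

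Likeness was measured as the root mean square difference between 2 genes' log2 profiles over the 10 E14 libraries, each centred on its mean, among 10092 other tested genes with at least 10 CPM on their highest day. The nearest profiles to Hnf4a were those of Cabp1 (0.27), Phlda2 (0.27) and Limch1 (0.30), where Hnf4a itself ranged over 2.38 log2 units. Those nearest to Foxq1 were Cd40 (0.25), Hdac7 (0.32) and Slit2 (0.32), and those nearest to Dab2 were Fam184a (0.23), P4ha2 (0.24) and Ttc21b (0.26). Apoe had the closest neighbours of the 8, Tmem106c (0.13), Jund (0.16) and Mpst (0.17). Apoa1 had the most distant, Glrx (0.50), Zfp954 (0.53) and Ankrd39 (0.54), and its levels were also among those with the fewest reads. For Afp they were BC023829 (0.34), Snai1 (0.42) and Ablim1 (0.46), for Cubn Has3 (0.28), Car3 (0.31) and Zfp87 (0.33), and for Amn Tspan17 (0.32), Pla2g16 (0.35) and Fcho1 (0.35). None of these nearest genes was on any of the marker lists used here, except Snai1, which is on the parietal endoderm list.

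The genotype comparison asked whether these genes depend on the p53 family at day 4, and the 2 libraries of 1 genotype often differed more than the genotypes did. Afp was at 26.1 and 1.33 in the Trp53+/+ libraries (replicates 1 and 2) and at 29.6 and 0 in those with p53 family loss. Ttr was at 13.0 and 0 against 11.1 and 0.860. For both genes replicate 1 of each genotype held nearly all the reads, 30 of 31 and 40 of 40 for Afp, and 15 of 15 and 15 of 16 for Ttr, and the genotypes overlapped. The log2 fold change of p53 family loss against Trp53+/+ was -0.52 ± 1.79 for Afp (adjusted p = 0.94) and 0.34 ± 1.44 for Ttr (adjusted p = 0.95).

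Cubn was at 346 and 17.2 in Trp53+/+ and at 106 and 18.1 in p53 family loss, again high in replicate 1 of each. Its log2 fold change was -0.81 ± 1.42 (adjusted p = 0.87). Hnf4a was at 54.7 and 6.63 against 6.65 and 8.60, and Apoa1 at 27.8 and 5.31 against 8.13 and 6.02, so that 1 Trp53+/+ library stood above the other 3 in both. Neither passed the filter, and without it their log2 fold changes were -1.27 ± 0.89 (adjusted p = 0.67) and -0.75 ± 0.75 (adjusted p = 0.80). Amn was at 40.0 and 10.6 against 25.1 and 22.4, with both values of p53 family loss between those of Trp53+/+.

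The remaining 3 genes differed less between libraries. Dab2 was at 904 and 671 in Trp53+/+ and at 1084 and 1139.7 in p53 family loss, higher in both libraries, with a log2 fold change of 0.51 ± 0.20 (adjusted p = 0.33). Foxq1 was at 266 and 134 against 140.4 and 97.2, overlapping, with -0.69 ± 0.39 (adjusted p = 0.53). Apoe was at 10211 and 10758 against 8287 and 10353, with -0.18 ± 0.17 (adjusted p = 0.75). Limma called none of the 7 tested genes, beside 1.24% of 14840 genes called, and 1 of the 7, Dab2, had an unadjusted p under 0.05. Neither edgeR nor DESeq2 called any of them, and DESeq2 gave an adjusted p for 6 of the 7.

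The log2 fold changes depended on which libraries of either genotype were kept. Without Trp53+/+ replicate 1, Dab2 had 0.73, Cubn 1.31 and Foxq1 -0.20, and Afp was positive. Without Trp53+/+ replicate 2, Afp had -2.29, Cubn -2.94, Foxq1 -1.18 and Dab2 0.30. These fits leave 1 library in the Trp53+/+ group, which then has no spread of its own, so no p-value is given. Over the 4 fits that each left out 1 library the log2 fold change of Cubn ran from -2.94 to 1.31 and that of Afp from -2.99 to 1.95, on both sides of 0. For Afp both ends of the range came from leaving out a p53 family loss library. Trp53+/+ replicate 1 was more than 2-fold above replicate 2 (on counts plus 1) in 6 of the 9 genes, in 5 of 13 endoderm transcription factors, in 4 of 8 feeder fibroblast markers, in 3 of 9 streak and mesoderm markers, in 3 of 9 definitive endoderm markers and in 6.25% of 15305 genes with a mean over 5. In p53 family loss, replicate 1 was so in 3 of the 9, in 0 of the 13, in 2 of 8, 2 of 9 and 0 of 9 of those markers in the same order, and in 3.24% of 15421 genes. In Trp53+/+ the other lists had 4 of 12 plasma proteins, 4 of 13 other visceral endoderm markers and 3 of 12 apolipoprotein genes. They also had 3 of 10 anterior visceral and 2 of 13 parietal endoderm genes and 2 of 11 trophoblast markers. Among 9 endocytic partners and 8 naive ES cell markers it was 1 each. Among 10 yolk sac blood and vessel markers and 7 p53 family genes and targets it was 0. In p53 family loss each of these lists had at most 2. The part of these library differences in the genotype result was not tested.

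With the replicate number as a term in the fit, limma called Dab2 and Foxq1, as described at the end. Without that term and with all 4 libraries, called differences between the genotypes lay in other genes than the 9. Of 9 streak and mesoderm markers 4 were lower in p53 family loss (T, Eomes, Mixl1 and Mesp1; DESeq2 called 7). Of 10 anterior visceral endoderm genes 3 were lower, Cyp26a1 (-2.45 ± 0.15, adjusted p = 0.0027), Lhx1 and Gsc. Of 13 parietal endoderm markers Snai1 and Fst were lower and Plat was higher. Of 12 tested primitive and visceral endoderm transcription factors, 1 was called lower, Foxa2, at 2322 and 1956 in Trp53+/+ and 727 and 667 in p53 family loss (-1.61 ± 0.17, adjusted p = 0.016). Gata4 had -1.86 ± 0.32 and Gata6 -1.91 ± 0.33, both with an adjusted p of 0.061. DESeq2 called 6 of the 12, these 3 with Sox17 and Hhex lower and Nr2f2 higher. The median of the 12 was -0.78, beside 0.01 over all genes. Of 9 tested endocytic receptor partners only Lrpap1, the chaperone of megalin, was called, with -1.32 ± 0.16 (adjusted p = 0.022), while Lrp2 had 0.53 ± 0.32 (adjusted p = 0.55). None of 8 tested apolipoprotein and lipid export genes was called by limma, edgeR or DESeq2, and 0 had an unadjusted p under 0.05. None of 6 plasma protein genes was called by limma or edgeR, where 4 had an unadjusted p under 0.05, and DESeq2 called 3 of 5 (Gc, Serpinf1 and Trf, all higher). Of 10 yolk sac blood and vessel markers 1 was higher, the embryonic globin Hba-x (4.75 ± 0.70, adjusted p = 0.041), and DESeq2 called 4, with Hba-x, Hbb-bh1 and Cdh5 higher and Etv2 lower.

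**Figure D4:**
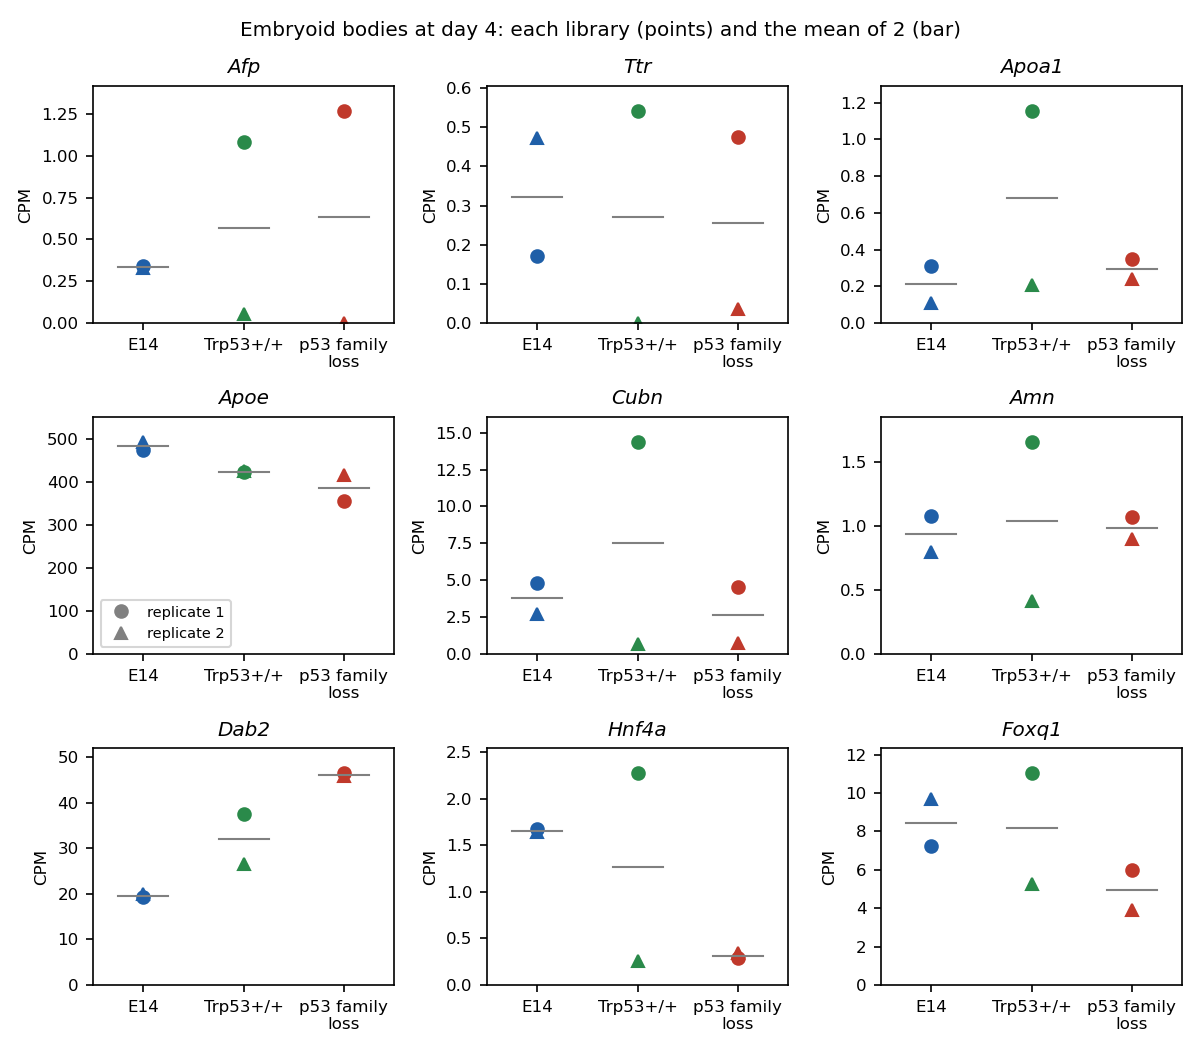
Counts scaled by library depth (CPM, y axis, from 0, a scale of its own in each panel) of the 9 genes in each library of EBs at day 4, with circles for replicate 1, triangles for replicate 2 and bars for the mean of 2. In Cubn the Trp53+/+ libraries lie at 14.3 and 0.680 CPM, on both sides of the E14 and p53 family loss libraries.

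As levels in CPM, which the 2 separately normalised tables share, and with no test across them, the wild-type lines can be set side by side at day 4. E14 libraries held Cubn at 4.83 and 2.73 CPM, between the 14.3 and 0.680 CPM of the Trp53+/+ libraries. Afp was at 0.341 and 0.328 CPM in E14 and 1.08 and 0.0523 CPM in Trp53+/+, and Hnf4a at 1.68 and 1.64 CPM against 2.27 and 0.262 CPM. For these 3 genes the 2 E14 libraries were closer to each other than the 2 Trp53+/+ libraries were. Dab2 was at 19.3 and 19.9 CPM in E14, below the 37.5 and 26.5 CPM of Trp53+/+ and the 46.4 and 45.9 CPM of p53 family loss. The lines differ in strain and in ES cell medium as well as in table, which cannot be told apart.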

How the data were processed

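RNA-seq came from 14 libraries, and the 16 ChIP-seq and input samples were not analysed here. Per the labels' protocols, libraries were made with a TruSeq RNA v2 kit, which does not mark strand, and sequenced with paired ends. The submitters' processing notes list HTSeq 0.5.4 and SAMtools 0.1.19, the aligner Bowtie2, FastQC 0.11.3 and DESeq2, and the build mm9, without saying how each was used. The deposited tables hold a signal, the authors' read counts divided by 1 factor per library: 100% of values were whole multiples of the smallest step within 1e-04, which gave whole reads. No reference genome was used, and gene positions come from RefSeq on GRCm38.p6, not mm9.

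Each table was filtered with filterByExpr on the recovered reads (15841 and 14840 genes left) and fitted as a whole on log2(signal + 1) in limma 3.58.1 under R 4.3.3 (trend on the mean level), with Benjamini-Hochberg adjusted p under 0.05 over all genes. The time course left 5 residual degrees of freedom and the genotypes 2. The 2 libraries of each group differed by more than counting noise. Alternatives were edgeR 4.0.16 and DESeq2 1.42.0 on the recovered reads, TMM scaling, a pseudocount of 10, no filter, a replicate block and leaving out each library. The fit was tested on simulated data. PCR copies are not independent molecules, so that intervals and floors reflect counting error alone.

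The members, the gene lists and the tests were chosen with earlier results of these data known. The rule names the 9 members, the p53 family, up to 4 genes per list with the smallest p for day 4 against day 0 and for the genotypes (2 for steps), and the 3 genes most like each tested member. Lrp2, Apob and Alb in the time course were named after their values were seen, as were genes that DESeq2 alone called. Some items are not reported here. Of the remaining lists, in the time course 4 of 7 yolk sac blood and vessel markers were higher and 1 lower, 4 of 10 trophoblast markers higher and 2 lower, and 2 of 7 feeder fibroblast markers higher. The higher trophoblast markers include Eomes and Hand1, which are on the streak and mesoderm list as well.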

Additional observations from a re-analysis of the deposited data

How the results depend on the processing

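Of 470 refits of a member's log2 fold change, 437 kept the side of the threshold that the reported value had. Any refit that gave no adjusted p was counted among the 437. A call was lost in 17 and gained in 16, and none reversed a called direction. Most of the 470 were refits of differences not called as reported, and all 17 losses fell on the called ones. Of 10 refits each, the day 4 against day 0 call was kept in 8 for Afp, 8 for Cubn, 5 for Dab2 and 6 for Foxq1. The call of Hnf4a for day 4 against day 3 was kept in 6 of 10. The 4 members called for day 4 against day 0 became 0 to 4 when each library was left out, and 3 or 4 under the other alternatives. Leaving out 1 library gave 0 to 3 members for day 1 against day 0, 0 to 1 for day 2 against day 1, 0 for day 3 against day 2, 0 for day 4 against day 3 and 0 to 3 for the genotypes, each against 0 as reported except 1 for day 4 against day 3. DESeq2 called 1 member for day 1 against day 0 and 2 for day 2 against day 1, and the fit without a filter called 2 for day 4 against day 3 (Afp and Hnf4a).

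Counts of all genes moved more. DESeq2 called 1450, 1290, 315 and 1026 genes for the 4 steps, against 523, 94, 21 and 464, and 657 against 184 for the genotypes, and the fit without a filter 21 against 94 for the second step. Leaving out 1 library gave 2811 to 7516 genes for day 4 against day 0, 63 to 5143, 0 to 821, 1 to 18 and 51 to 241 for the 4 steps, and 151 to 1599 for the genotypes. The cause was not tested. A group left with 1 library is assumed to vary like the other groups, so counts from these fits do not reflect that group's own spread.

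The labels give replicate numbers but no shared culture or day. Replicate differences correlated between genotypes over genes (r = 0.57), and between pairs of E14 days from -0.19 to 0.35. With the replicate block, limma called 2 of the 7 tested members between genotypes, Dab2 higher (adjusted p = 0.015) and Foxq1 lower (adjusted p = 0.032). They stood beside 2973 of all 14840 genes, and the block left fewer than the 2 residual degrees of freedom of the main fit. With the block, Dab2 was not called for day 4 against day 0 (adjusted p = 0.052), where 3 members remained. Depth limits Afp and Ttr, which had 1 to 40 reads in the libraries where they were seen. It also limits Apoa1, with 2 to 13 reads in each E14 library.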
